A study of Homo sapiens with 26 samples.

Results

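Compounds 40 and 77 are a pair among the 4 inhibitors of HIF-2a translation, picked in a chemical genetic screen, whose effect on the 786-O transcriptome was profiled on Affymetrix U133 Plus 2.0 arrays. The comparison described here takes the arrays titled 40-1, 40-2 and 40-3 and those titled 77-1, 77-2 and 77-3, which is 6 of the 26 arrays of the series, over all probe sets. The groups were 786-O cells given compound 40 (3 arrays), 786-O cells given compound 77 (3 arrays) and 786-O cells mock treated with the solvent DMSO (3 arrays), which served both compounds as the same control. 786-O is an established line from a human clear cell renal carcinoma that has lost functional VHL, the protein that marks HIF-2a for degradation, and HIF-2a protein was not measured here. The labels used here give no dose, no exposure time and no structure for either code number, so whether the 2 compounds were compared at matched doses is unknown. Nothing in the labels says that the replicates were separate cultures, so every p-value below measures the spread between arrays, which may be technical. That spread was estimated over 24 arrays, which also included untreated cells, compounds 41 and 76 and the sublines PRC3 and WT8.

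HIF-2a, encoded by EPAS1, is the oxygen-regulated transcription factor that drives growth and angiogenic genes such as CCND1 and VEGFA in VHL-deficient renal carcinoma. Its mRNA carries an iron-responsive element through which iron regulatory proteins can hold back its translation. NRF2, encoded by NFE2L2, is the transcription factor of the electrophile and oxidant response: KEAP1 sends it for degradation until reactive compounds modify KEAP1, after which NRF2 binds antioxidant response elements and turns on glutathione synthesis, thioredoxin, NADPH and detoxification genes.

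Signals were those of the deposited table, quantile normalized over all 26 arrays with a floor of 20, and they are relative units of 1 probe set that carry no scale between genes. Compound 40 replicates 2 and 3 had been deposited on another scale than the rest: their mean signals were 165.9 and 173.7, against 142.8 in the other 24 columns, and they shared the same median of 26.96. After normalization, replicate 2 of compound 40 correlated with replicate 1 of its group at r = 0.938, whereas pairs of compound 77 arrays correlated at 0.963 to 0.971 across probe sets, which are not independent replicates. The 3'/5' signal ratio of the ACTB control probe sets, a common gauge of RNA quality and labelling, was 1.09 to 1.32 in compound 40 arrays, 0.997 to 1.02 in compound 77 arrays and 1.03 to 1.10 in DMSO arrays. The part of this ratio in the results below was not tested. Markers of a renal epithelial line summed to 11450 to 12670 in compound 40 arrays, 12240 to 12750 in compound 77 arrays and 11850 to 12380 in DMSO arrays. VIM, at 7503 to 8087, made up most of each sum, and LRP2 was at the floor on 5 of the 9 arrays. The leukocyte marker PTPRC and the endothelial markers CDH5 and VWF stood at the floor on all 9 arrays. The leukocyte markers LYZ and CD3E and the endothelial marker KDR were at the floor on 8, 6 and 7 arrays, with highest signals of 20.65, 31.05 and 29.6. The endothelial marker PECAM1 read 45.5 to 89.1 and was never at the floor. The fibroblast markers summed to 115 to 208 with compound 40, 197.5 to 227.9 with compound 77 and 235 to 286 with DMSO, and the part of this in the results was not tested.

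Among 15124 genes, each read by its brightest probe set with a single gene name, 87 differed between compound 40 and compound 77 at an adjusted p below 0.05 (limma over 24 arrays, Benjamini-Hochberg over 35013 probe sets). Of these, 40 were higher and 47 lower with compound 40, which is 0.264% and 0.311% of the genes tested. Of these, the largest rises were in AKR1C3, HMOX1, AKR1B10 and ALDH1A1, and the largest falls in MYL10, GBP1, TRIDDENT and GJB2. The 87 are 0.575% of all genes, and 1859 genes (12.3%) had an unadjusted p below 0.05. Over probe sets the count was 154 of 35013, or 0.44%, with 68 higher and 86 lower. Against DMSO, compound 40 had 240 probe sets called (0.685%), 119 higher (0.34%) and 121 lower (0.346%), and 128 genes (0.846%). Compound 77 had 60 probe sets called against the same arrays (0.171%), 43 higher (0.123%) and 17 lower (0.0486%), and 27 genes (0.179%). The direction split between the compounds depended on scaling: it was 91 higher and 36 lower on the signals as deposited, and 30 higher and 19 lower after scaling each array to its median alone. The probe set count also rested on single arrays, being 459 without compound 40 replicate 1, 45 without its replicate 2, 66 without its replicate 3, 42 without compound 77 replicate 2 and 33 without compound 77 replicate 3. On the bulk RNA of a culture, fewer cells with a transcript and less of it per cell cannot be told apart.

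**Figure D1:**
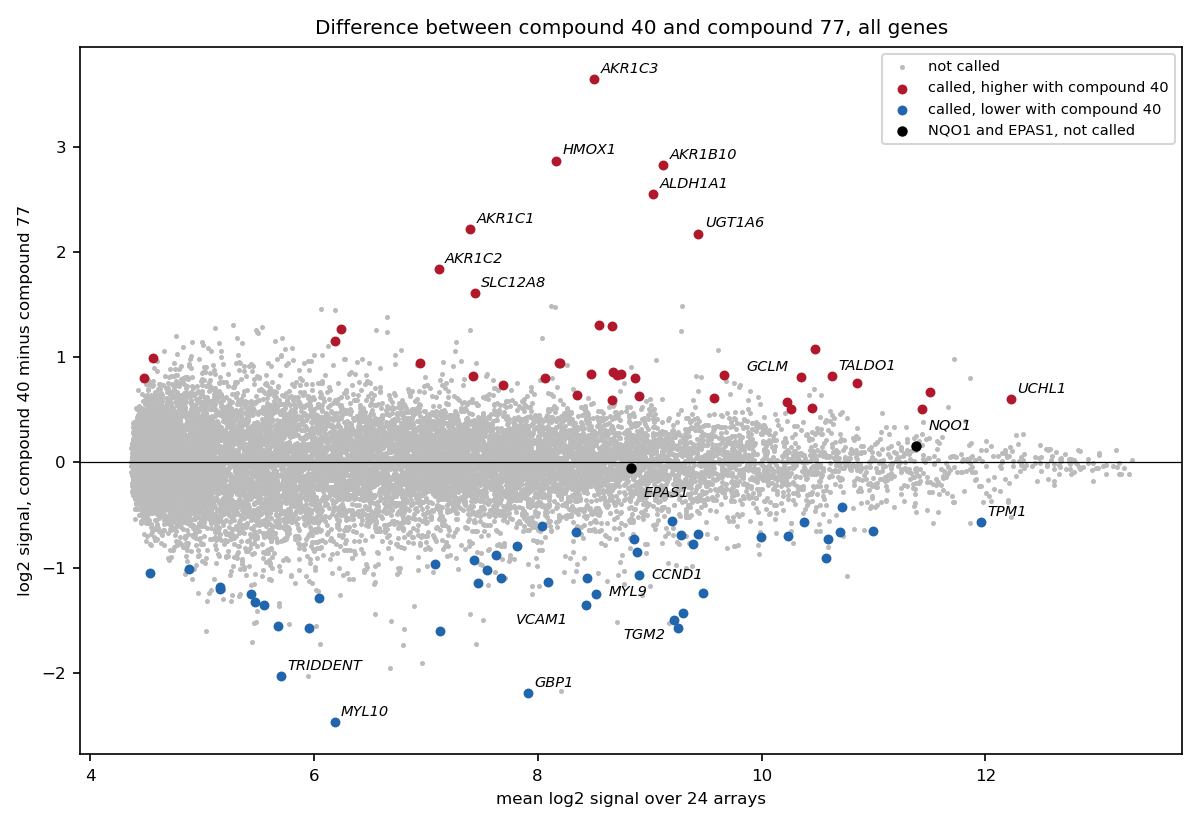
Difference between compound 40 and compound 77 (log2, compound 40 minus compound 77) against the mean level of each of 15124 genes (log2 signal), with the 40 genes called higher and the 47 called lower in colour. The called genes with the largest differences are AKR1C3 and HMOX1 on the upper side and MYL10 and GBP1 on the lower side, while NQO1 and EPAS1, drawn in black, were not called.

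Among the gene lists, the targets of NRF2 held the most calls. Of the 28 measured genes of a list of 30 textbook targets, 12 rose with compound 40 relative to compound 77 and none fell. The median log2 difference was 0.73, against a median of 0 over all genes and 0.264% of them called higher. The list was written with earlier results of these data known, so its share of calls is no independent support. The 12 were HMOX1, GCLC, GCLM, SRXN1, TXNRD1, AKR1C1, AKR1C2, AKR1C3, AKR1B10, TALDO1, TKT and UGDH. Probe sets of the AKR1C genes among them may read each other's transcripts, so the 12 are not independent. A further 13 had values above 0 and 3 had values below 0 without a call. The compound 40 arrays all lay above the compound 77 arrays for 18 of the 28, against 7.49% of all genes. Set against DMSO, 17 of the 28 rose with compound 40, where 0.436% of all genes were called higher, and 2 rose with compound 77 (NQO1 and PTGR1), where the share was 0.139%. The medians were 0.81 for compound 40 and 0.19 for compound 77, and both comparisons share the DMSO arrays. The 12 became 7 without compound 40 replicate 3 and 7 after median scaling, and stood between 8 and 12 when any other array of compound 40 or compound 77 was left out. They became 7 with no filter on low signals. With compounds 40 and 77 fitted alone, without the other groups' arrays to estimate the spread, 1 of the 28 was called, AKR1C3. With compound 40 represented by replicate 1 alone, the array deposited like the rest, HMOX1 and GCLM were the 2 that remained.

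Promoter windows from RefSeq (GRCh38.p14, 250 bases before to 50 after each gene start) were searched on both strands for TGACNNNGC, the core of the antioxidant response element, whose start can coincide with the AP-1 motif TGACTCA. The sequences are shown because this is the element through which NRF2 acts, with the core in capitals. Of the 12 called targets 10 had a window, and the core lay in those of GCLM and TXNRD1. Windows of the targets that were not called held it too, as for ME1 and EPHX1.
GCLM, chr1:93909448-93909472, plus strand: gaagacaaTGACTAAGCagaaatcg
TXNRD1, chr12:104215672-104215696, plus strand: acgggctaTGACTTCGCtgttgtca
TXNRD1, chr12:104286922-104286946, minus strand, at another start: agtcagaaTGACAAAGCagaaatcc
ME1, chr6:83431172-83431196, minus strand: tcctgccaTGACTCAGCgcttctcg
EPHX1, chr1:225825268-225825292, plus strand: agattggcTGACTTGGCaggactgt
The same core lay in 4687 of all 35116 windows, or 13.3%, and in those of 6 of the 22 listed targets that had a window. A match is a description of letters and says nothing of whether NRF2 was bound there.

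HMOX1, heme oxygenase 1, which breaks heme down to biliverdin, iron and carbon monoxide, had signals of 725, 1238 and 568 with compound 40, 90.7, 128 and 111 with compound 77, and 109.5, 77.8 and 84.6 with DMSO. Every compound 40 array stood well above all the others, and compound 77 overlapped the solvent. HMOX1 was 7.33-fold higher with compound 40 than with compound 77 (log2 2.87 ± 0.27 SE, limma adjusted p = 4.76e-06). HMOX1 lost this call with compounds 40 and 77 fitted alone (limma adjusted p = 0.167). It differed from DMSO by 3.16 on the log2 scale with compound 40 (adjusted p = 1.52e-06) and by 0.28 with compound 77 (adjusted p = 0.9).

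Both subunits of glutamate-cysteine ligase, the rate-limiting enzyme of glutathione synthesis, rose. The modifier subunit GCLM read 1938, 1480.4 and 1645 with compound 40, 968, 951 and 943 with compound 77, and 918, 1142 and 983 with DMSO, which is 1.76-fold higher with compound 40 than with compound 77 (adjusted p = 0.00099, limma). Its promoter core is the first one printed above. For the catalytic subunit GCLC the signals were 338, 392 and 407 with compound 40, 191, 179 and 219 with compound 77, and 203, 219.8 and 242 with DMSO. GCLC was 1.93-fold higher with compound 40 (log2 0.95, adjusted p = 0.00288), and compound 77 differed from DMSO by log2 -0.08 for GCLM and -0.17 for GCLC, with no call. Of the 3 GCLM probe sets all were higher with compound 40 and 1 was called. GCLM lost its call after median scaling (limma adjusted p = 0.0768). With compounds 40 and 77 fitted alone, neither GCLM nor GCLC was called (limma adjusted p = 0.22 and 0.207). SLC7A11, the cystine carrier that feeds this pathway, read 796, 942 and 930.0 with compound 40 and 380.1, 436 and 309 with compound 77. Its arrays did not overlap, but its difference of log2 1.26 missed the threshold (adjusted p = 0.058, 95% interval 0.64 to 1.87) and passed it without DMSO replicate 3 (adjusted p = 0.0467), on the signals as deposited (0.0298), with a minimum signal of 100 (0.0419) and with the labels' variation filter (0.0396).

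The thioredoxin arm was represented by 2 called genes. TXNRD1, thioredoxin reductase 1, had signals of 3676, 4296 and 3993 with compound 40, 2042, 3045 and 2513 with compound 77, and 2014, 2609.8 and 2235 with DMSO (log2 difference 0.67 between the compounds, adjusted p = 0.0372). SRXN1, sulfiredoxin, which repairs overoxidized peroxiredoxins, read 392, 786 and 643 with compound 40, against 169.9, 287 and 270.2 with compound 77 (2.47-fold, adjusted p = 0.0412). Both had compound 40 arrays above all compound 77 arrays, but with less margin than HMOX1. TXNRD1 lost its call without compound 40 replicate 2 or 3 or compound 77 replicate 1 or 3, and SRXN1 lost its call in 7 of the 9 fits without an array. Of the 31 measured genes of glutathione and thioredoxin metabolism, GCLC, GCLM, SRXN1 and TXNRD1 were the 4 called, against 0.264% of all genes called higher. All 4 are also among the 12 called NRF2 targets, so this count is not a separate result. The median of the list was 0.13. Without single arrays the count was 2 to 4, and with compounds 40 and 77 fitted alone it was 0.

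The largest rise of the called genes, in AKR1C3, belonged to the aldo-keto reductases, NADPH-dependent enzymes that reduce aldehydes, ketones and steroids. Of the 6 measured members 4 rose with compound 40 relative to compound 77 and none fell, where 0.264% of all genes were called higher, with a median log2 difference of 2.03. These 4 are also among the 12 called NRF2 targets and are counted again here. AKR1C3 read 1052, 1210.2 and 1126 with compound 40, 85.3, 106 and 80.6 with compound 77, and 105, 98.9 and 159 with DMSO. The 3 compound 40 arrays were close together and far above the other 6. AKR1C3 was 12.5-fold higher with compound 40 than with compound 77 (log2 3.65 ± 0.45 SE, adjusted p = 0.00019, 95% interval 2.72 to 4.58).

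AKR1B10, a retinal and aldehyde reductase, had signals of 1448, 2238 and 3219.5 with compound 40, 97.1, 624 and 477 with compound 77, and 95, 152 and 222 with DMSO. Here compound 77 was spread more widely, with replicates 2 and 3 above every DMSO array. The difference between the compounds was 7.12-fold (log2 2.83 ± 0.49 SE, adjusted p = 0.00857), and the differences from DMSO were log2 3.89 with compound 40 (adjusted p = 0.000161) and 1.06 with compound 77 (adjusted p = 0.636). AKR1C1 read 235, 485 and 395 with compound 40, 34.5, 166 and 77.2 with compound 77, and 74.5, 65 and 59.4 with DMSO (4.67-fold between the compounds, adjusted p = 0.00319). AKR1C2 followed the same order, with 225, 348 and 262 with compound 40, 43.5, 140.0 and 73.4 with compound 77, and 45.8, 43.7 and 66.6 with DMSO (3.58-fold, adjusted p = 0.00223). The AKR1C genes are near-identical paralogs, so their probe sets may read each other's transcripts and are not independent. AKR1B10 lost its call without compound 40 replicate 3 (adjusted p = 0.0568). With compounds 40 and 77 fitted alone, 1 of the 6 measured aldo-keto reductases was called. By replicate 1 of compound 40 alone none of the 6 was called, and AKR1C3 stood at log2 3.55 with an adjusted p of 0.0607.

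Among the 11 measured genes of a list for NADPH production, 2 rose, against 0.264% of all genes called higher, with a list median of 0.30. These 2, TALDO1 and TKT, are also among the called NRF2 targets. Both belong to the non-oxidative branch of the pentose phosphate pathway, not to its NADPH-yielding oxidative branch. TALDO1, transaldolase, read 1846, 2712 and 2279.5 with compound 40, 1278, 1265 and 1284 with compound 77, and 1568, 1329 and 1562 with DMSO (1.76-fold, adjusted p = 0.000868). TKT, transketolase, read 2416, 2523 and 2812 with compound 40, 1545, 1393 and 1644 with compound 77, and 1779, 1424 and 1508 with DMSO (1.69-fold, adjusted p = 0.041). For both, no compound 40 array overlapped the other groups, while compound 77 lay below the solvent for TALDO1 and overlapped it for TKT. TKT lost its call in 6 of the 9 fits without an array, and none of the 11 was called with compounds 40 and 77 fitted alone. ME1, the cytosolic malic enzyme whose element is printed above, averaged 792 ± 98 with compound 40, 651 ± 128 with compound 77 and 459 ± 25.7 with DMSO (SD, n = 3 each) and was not called between the compounds.

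Some NRF2 targets separated the compounds little or not at all. NQO1, the quinone reductase that is among the most used readouts of NRF2, read 4909, 4332 and 4357 with compound 40, 3307, 4537 and 4474 with compound 77, and 1774, 1813 and 1824 with DMSO. All 6 compound arrays stood above all 3 solvent arrays, and the compounds overlapped each other. NQO1 rose 2.51-fold over DMSO with compound 40 (adjusted p = 3.41e-06) and 2.25-fold with compound 77 (adjusted p = 8.19e-05). Between the compounds the log2 difference was 0.15, with a 95% interval of -0.11 to 0.42 (adjusted p = 0.702). PTGR1, prostaglandin reductase 1, named after its values were seen, read 1067, 1338 and 857 with compound 40, 901, 1583 and 1450.5 with compound 77, and 534, 399 and 426 with DMSO. It too rose over DMSO with both compounds, 2.38-fold (adjusted p = 0.00455) with compound 40 and 2.84-fold (adjusted p = 0.00146) with compound 77, and the 95% interval of the log2 difference between them was -0.69 to 0.18. BLVRB, biliverdin reductase B, which is on the heme and iron list and was also named after its values were seen, rose over DMSO by log2 1.48 with compound 40 and 1.64 with compound 77 (adjusted p = 0.0139 and 0.0107). NFE2L2 itself, the NRF2 transcript, differed between the compounds by log2 -0.07, with a 95% interval of -0.38 to 0.24.

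**Figure D2:**
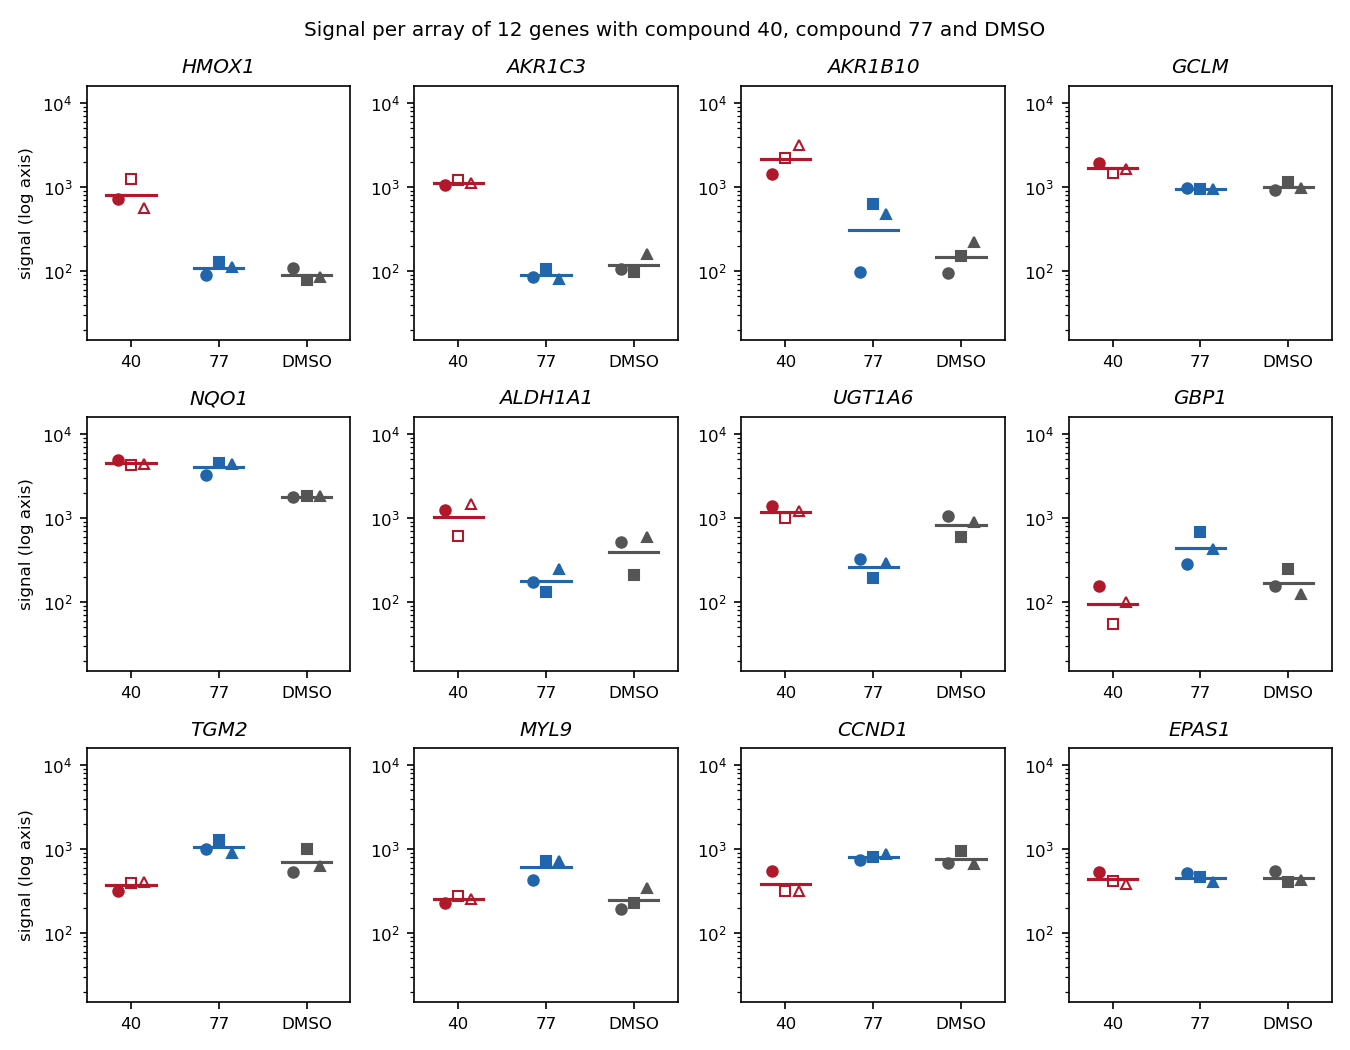
Signals of 12 genes on each array (log axis, relative units), with compound 40, compound 77 and DMSO from left to right. Symbols mark replicate numbers, open symbols mark compound 40 replicates 2 and 3, which were deposited on another scale, and lines mark geometric means. HMOX1 and AKR1C3 are high with compound 40 alone, NQO1 is high with both compounds, UGT1A6 is low with compound 77, and EPAS1 overlaps in all groups.

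For UGT1A6 and CYP1B1 it was compound 77 that lay farther from DMSO. UGT1A6, a glucuronosyltransferase, read 1407, 999 and 1219.7 with compound 40, 323, 193 and 297 with compound 77, and 1070.0, 605 and 909 with DMSO. The compound 40 and DMSO arrays overlapped, and every compound 77 array lay below both. The difference between the compounds was 4.53-fold (log2 2.18 ± 0.35 SE, adjusted p = 0.00347), made up of log2 0.51 for compound 40 against DMSO (adjusted p = 0.601) and -1.66 for compound 77 against DMSO (adjusted p = 0.0462). The UGT1A genes share their last exons, so this probe set may read several of them. ALDH1A1, which oxidizes retinal to retinoic acid, read 1265, 616 and 1459.6 with compound 40, 174, 133 and 245 with compound 77, and 514, 210.2 and 591 with DMSO (5.86-fold between the compounds, adjusted p = 0.0146). The mean of DMSO lay in between, and neither compound passed the test against it (log2 1.39 and -1.17 for compounds 40 and 77). ALDH1A1 lost its call without compound 40 replicate 3 or compound 77 replicate 2. CYP1B1, a target of the aryl hydrocarbon receptor, went the other way, with 687, 525 and 744 with compound 40, 1762, 1132 and 1766 with compound 77, and 622, 812 and 687 with DMSO. CYP1B1 was 2.36-fold lower with compound 40 than with compound 77 (adjusted p = 0.0493), a call kept in 1 of the 9 fits without an array. Its difference of compound 77 from DMSO was not called (log2 1.115, adjusted p = 0.148). The other probe sets of CYP1B1 gave log2 -0.66, -1.07 and -0.65 between the compounds (adjusted p = 0.622, 0.283 and 0.335). UGT1A6 and CYP1B1 were the 2 called, in opposite directions, among the 7 measured genes of the aryl hydrocarbon receptor list, whose median was -0.36. Of all genes, 0.264% were called higher and 0.311% lower.

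Other genes that rose with compound 40 stood apart from both compound 77 and DMSO. SLC12A8, a solute carrier, read 265, 385 and 319 with compound 40, 119, 78.7 and 121 with compound 77, and 123, 92.2 and 126 with DMSO (3.06-fold between the compounds, adjusted p = 0.00347). RO60, an RNA-binding protein of small noncoding RNAs, read 683, 649 and 639 with compound 40, 473, 266 and 377 with compound 77, and 366, 312 and 307 with DMSO (1.81-fold, adjusted p = 0.0368). UGDH, the remaining called NRF2 target, named after its values were seen, makes the UDP-glucuronate that glucuronosyltransferases use and read 1079, 1074 and 1056 with compound 40, 548, 542 and 727 with compound 77, and 436, 529 and 614 with DMSO (1.78-fold, adjusted p = 0.0319). In each of the 3 genes no compound 40 array overlapped any other. UGDH kept its call in 2 of the 6 fits without an array of either compound (highest adjusted p 0.168) and lost it after median scaling (adjusted p = 0.146). The 5 probe sets of RO60 disagreed, with 3 higher and 1 called.

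MPC1, MCU, MAGED1 and MAGED2 were among the other large rises. MPC1, a subunit of the mitochondrial pyruvate carrier, read 157, 195 and 199 with compound 40, 107, 79.6 and 98.8 with compound 77, and 109.8, 98.9 and 112 with DMSO (1.93-fold, adjusted p = 0.0343). MCU, the mitochondrial calcium uniporter, read 392, 406 and 376 with compound 40, against 196, 173 and 247 with compound 77 (1.92-fold, adjusted p = 0.0343). MAGED1, an adaptor protein, read 1817, 2174 and 2430.3 with compound 40, 1281, 664 and 1190.3 with compound 77, and 1259, 1136 and 1609 with DMSO. Replicate 2 of compound 77 was the lowest of the 9 MAGED1 values, and it was also the lowest for MAGED2, which was 2.46-fold higher with compound 40 (adjusted p = 0.0343). MPC1, MAGED1 and MAGED2 each lost their call without compound 40 replicate 2 or 3 or compound 77 replicate 2 or 3, while RO60 and MCU did so in 5 of the 9 fits. PSMD1, a subunit of the proteasome's regulatory particle, was the 1 called of 27 measured proteasome genes (1.42-fold, adjusted p = 0.0493), where 0.264% of all genes were called higher. PSMD1 lost its call in 8 of the 9 fits.

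**Figure D3:**
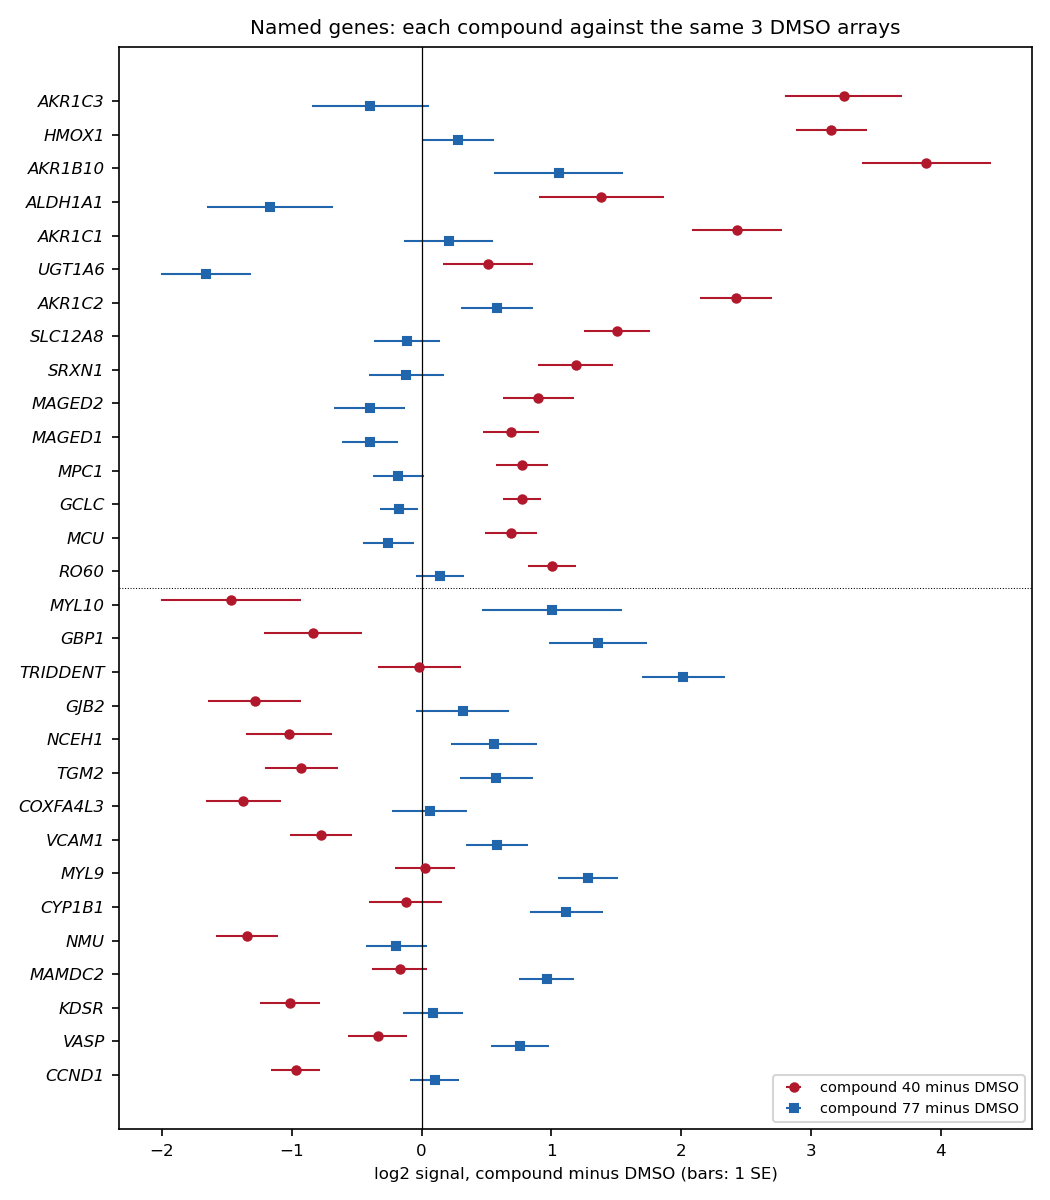
The 15 largest rises and 15 largest falls of compound 40 against compound 77, each shown as compound 40 minus DMSO and as compound 77 minus DMSO (log2 difference, bars ± 1 SE from the fit). The same 3 DMSO arrays serve both, so the 2 sets of points are not independent. The aldo-keto reductases and HMOX1 lie far from 0 with compound 40 and nearer to it with compound 77, whereas UGT1A6 and TRIDDENT lie nearer to 0 with compound 40 and away from it with compound 77.

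Among the largest falls with compound 40 were MYL9, TGM2, VASP and MYL10. MYL9, the regulatory light chain of nonmuscle and smooth muscle myosin, read 227, 279 and 258 with compound 40, 432, 720.2 and 714 with compound 77, and 194, 228 and 349 with DMSO. Compound 40 lay in the range of DMSO and compound 77 above it: MYL9 was 2.39-fold lower with compound 40 than with compound 77 (adjusted p = 0.0116) and 2.43-fold higher with compound 77 than with DMSO (adjusted p = 0.013). TGM2, transglutaminase 2, which crosslinks matrix and cytoskeletal proteins, read 316, 398 and 405 with compound 40, 1003, 1279 and 904 with compound 77, and 541, 1016 and 637 with DMSO (2.83-fold lower with compound 40, adjusted p = 0.0139, all 3 of its probe sets called). VASP, which promotes actin filament growth, read 342, 219 and 279 with compound 40, 499.7, 661 and 618 with compound 77, and 286, 392 and 376 with DMSO (2.14-fold lower, adjusted p = 0.0311). Neither compound passed the test against DMSO for TGM2 or VASP. MYL10, a myosin light chain, had the largest fall of the genes named here, 5.54-fold, with 33.4, 29.5 and 30.2 with compound 40, 173, 161 and 181 with compound 77, and 119, 42.5 and 125 with DMSO (adjusted p = 0.0383). The other kept probe set of MYL10 did not show it (log2 -0.07, adjusted p = 0.98). TPM1, tropomyosin 1, chosen after its values were seen, fell by 0.57 on the log2 scale with compound 40 against compound 77 (adjusted p = 0.0104) and by 0.71 against DMSO (adjusted p = 0.000708). MYL9 lost its call without compound 77 replicate 2 or 3, TGM2 without compound 40 replicate 2 or compound 77 replicate 2, VASP without any of compound 40 replicates 2 and 3 and compound 77 replicates 2 and 3, and MYL10 in 5 of the 9 fits. TPM1 kept its call in 3 of the 6 fits without an array of either compound (highest adjusted p 0.0855) and lost it after median scaling (adjusted p = 0.244), and 2 of its 6 probe sets were called.

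VCAM1, the adhesion molecule through which leukocytes bind activated cells, was the 1 called gene among 23 measured NF-kB targets, where 0.311% of all genes were called lower. It read 191, 209 and 192 with compound 40, 514, 489 and 515 with compound 77, and 280.0, 474 and 290.1 with DMSO. The compound 40 arrays were lower than all others, by 2.56-fold against compound 77 (log2 -1.36 ± 0.24 SE, adjusted p = 0.00857), and the call was lost without compound 77 replicate 3 (adjusted p = 0.0541). The median of the NF-kB list was -0.46, with 18 of 23 genes below 0 and 10 whose compound 40 arrays all lay below the compound 77 arrays, against 8.03% of all genes. Members with large values that the test did not call were widely spread among replicates, such as the cytokine IL6, named after its values were seen, with 50.3, 77 and 61.3 with compound 40, 122, 351 and 207 with compound 77, and 50.2, 115 and 64.9 with DMSO (log2 -1.74, adjusted p = 0.315, 95% interval -3.14 to -0.33). GBP1, an interferon-inducible GTPase, fell 4.58-fold, with 158, 55.2 and 100.4 with compound 40, 284, 687 and 429.9 with compound 77, and 158, 248 and 126 with DMSO (log2 -2.19 ± 0.38 SE, adjusted p = 0.00765). Its 3 probe sets were all called, and its call was lost without compound 40 replicate 2 or compound 77 replicate 2. None of the 25 measured genes of the interferon list was called between the compounds, and 21 of them were below 0, with a median of -0.37.

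The transcript of HIF-2a did not pass the test in any of the 3 comparisons. EPAS1 read 535, 418 and 386 with compound 40, 517, 463 and 404 with compound 77, and 556, 402 and 434 with DMSO. The 3 groups overlapped throughout, and the log2 difference between the compounds was -0.06 with a 95% interval of -0.55 to 0.44 (adjusted p = 0.973). An array of transcripts does not measure HIF-2a protein. CCND1, cyclin D1, a HIF-2a target in this line that drives entry into S phase, read 553, 322 and 321 with compound 40, 739.9, 809 and 888 with compound 77, and 677, 959 and 664 with DMSO. All compound 40 arrays were below all others, with replicate 1 nearest to them. CCND1 fell 2.1-fold with compound 40 against compound 77 (log2 -1.07 ± 0.19 SE, adjusted p = 0.0104) and by 0.97 on the log2 scale against DMSO (adjusted p = 0.0158), while compound 77 differed from DMSO by 0.10 (adjusted p = 0.97). The call was lost without compound 40 replicate 2 (adjusted p = 0.0888) or 3 (adjusted p = 0.0631) and without compound 77 replicate 2 (adjusted p = 0.0532) or 3 (adjusted p = 0.0691). The other probe set of CCND1 gave log2 -0.65 (adjusted p = 0.271).

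VEGFA, the angiogenic growth factor, read 731, 368 and 379.6 with compound 40, 1048, 1012 and 779 with compound 77, and 1436, 1139.9 and 926 with DMSO. Its compound 40 arrays were the 3 lowest, but the 2.01-fold lower level against compound 77 missed the threshold (adjusted p = 0.157, log2 interval at 95% of -1.61 to -0.40). It passed without compound 40 replicate 1 (log2 -1.33, adjusted p = 0.0277). The other probe sets of VEGFA gave log2 -0.55, -0.80 and -0.39 between the compounds (adjusted p = 0.656, 0.591 and 0.702). On the first of these, compound 40 replicate 1 read 367.6, above the 357.1, 352.1 and 280.7 of compound 77. Against DMSO, VEGFA fell by 1.30 with compound 40 (adjusted p = 0.0366) and stood at -0.29 with compound 77 (adjusted p = 0.907). SLC2A1, the glucose transporter GLUT1, read 786, 693 and 498 with compound 40, 958, 737 and 727 with compound 77, and 1012, 876 and 784 with DMSO (log2 -0.31 between the compounds, adjusted p = 0.516). Of 26 measured HIF-2a targets CCND1 was the 1 called, where 0.311% of all genes were called lower. Of the 26, 10 were above 0 and 16 below it. Their median of -0.07 turned to 0.01 on the signals as deposited and to 0.22 with compound 40 by replicate 1 alone. Against DMSO, 2 of the 26 fell with compound 40 (VEGFA and CCND1), where 0.41% of all genes were called lower, and none with compound 77, where 0.0397% were. None of the 10 genes for HIF subunits and their regulators was called.

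**Figure D4:**
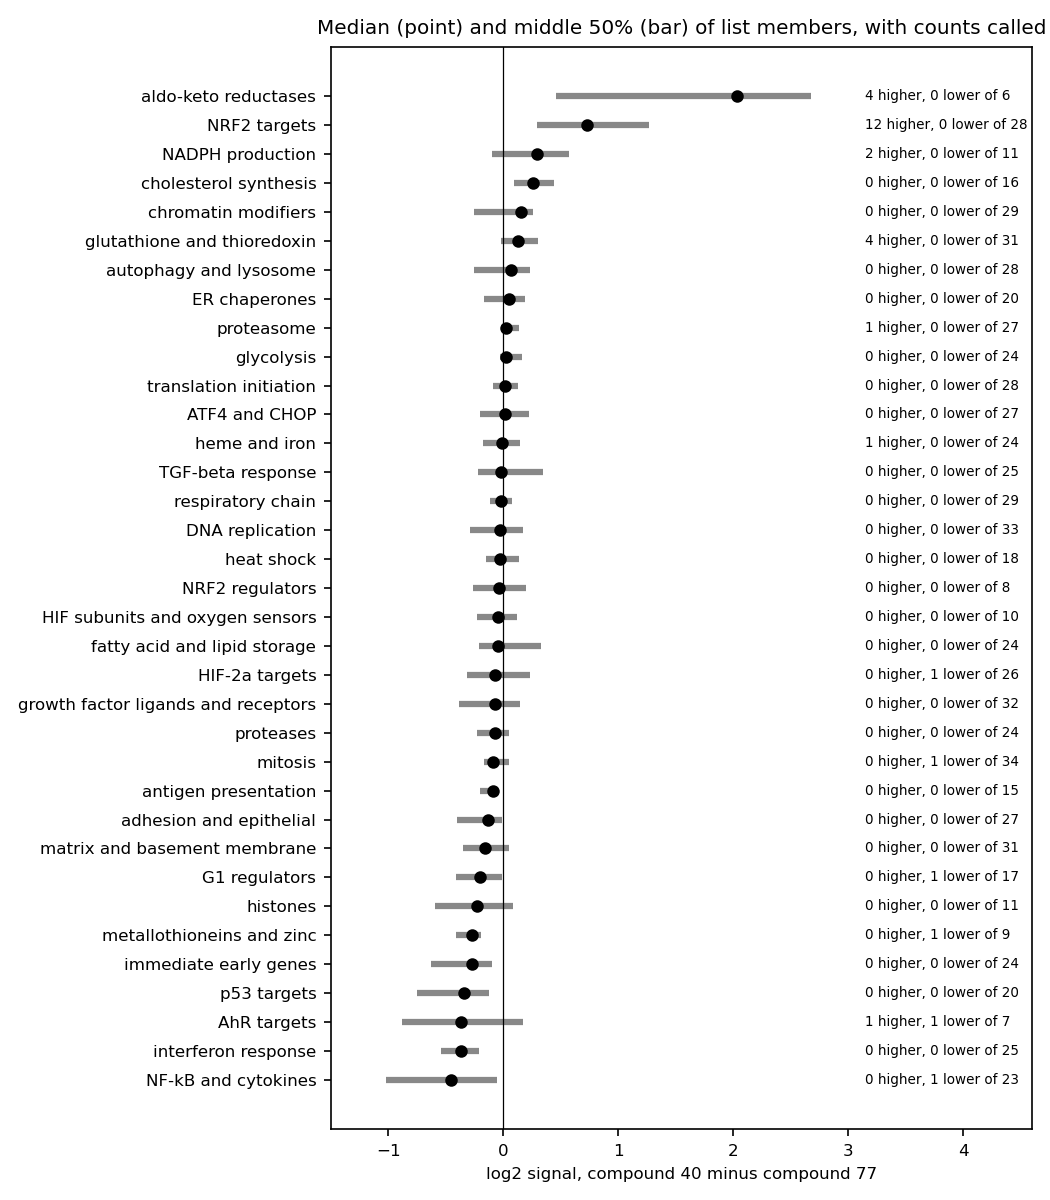
Median and middle 50% of the log2 difference of compound 40 against compound 77 for each gene list, with the number of members called higher and lower. The aldo-keto reductases (median 2.03) and the NRF2 targets (0.73) lie above 0, the NF-kB targets (-0.46) below it, and the HIF-2a targets (-0.07) on it.

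Metallothioneins are cysteine-rich proteins that bind zinc and copper. In a list of metallothionein and zinc genes, all 9 measured members had values below 0 for compound 40 against compound 77, with a median of -0.27. Of the 9, 1 was called, where 0.311% of all genes were called lower. MT1H read 770.5, 1069 and 1223 with compound 40, 1689, 2090.3 and 1896 with compound 77, and 2118, 2746 and 2108 with DMSO (1.88-fold lower with compound 40 than with compound 77, adjusted p = 0.0291). Against DMSO, MT1H, MT2A and MT1F fell with compound 40, by 1.20, 0.71 and 0.97 on the log2 scale (adjusted p = 0.00178, 0.0137 and 0.0232), and none of the 9 was called with compound 77, whose list median was -0.29. Probe sets of the metallothioneins may read each other's transcripts, so the 9 values are not independent. MT1H lost its call without compound 40 replicate 1 or 2 or compound 77 replicate 2 or 3.

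Further falls followed 2 patterns against the solvent. In the first, compound 77 stood above DMSO: TRIDDENT, a noncoding RNA, read 44.4, 20 and 40.3 with compound 40, 128, 124 and 154 with compound 77, and 26.6, 33.8 and 41.3 with DMSO. TRIDDENT was lower with compound 40 than with compound 77 (adjusted p = 0.00327) and higher with compound 77 than with DMSO (adjusted p = 0.00487). Its compound 40 and DMSO signals lay near the floor of 20, with 1 compound 40 array on it, so no fold is given. MAMDC2 had a similar order of levels, with 244, 227 and 146 with compound 40, 498, 400.1 and 429 with compound 77, and 219, 244 and 214 with DMSO (2.2-fold lower, adjusted p = 0.0139), but its difference of compound 77 from DMSO was not called (log2 0.97, adjusted p = 0.0704). In the other pattern compound 40 stood below DMSO. NMU, the neuropeptide neuromedin U, read 98.5, 96.3 and 91.3 with compound 40, 304, 156 and 200.3 with compound 77, and 227, 219 and 287 with DMSO, and fell by 1.35 on the log2 scale against the solvent (adjusted p = 0.00659). COXFA4L3 read 311, 420.1 and 383 with compound 40, 760.2, 1489 and 875 with compound 77, and 907, 1171 and 818 with DMSO, 2.7-fold lower with compound 40 than with compound 77 (adjusted p = 0.027). KDSR, a reductase of sphingolipid synthesis, also fell with compound 40, by 1.10 against compound 77 and by 1.01 against DMSO (adjusted p = 0.0343 and 0.0391). GJB2, the gap junction protein connexin 26, and NCEH1, a cholesteryl ester hydrolase, fell 3.04-fold and 2.98-fold against compound 77 (adjusted p = 0.0432 and 0.0343), but their differences of compound 40 from DMSO were not called (adjusted p = 0.106 and 0.178). TRIDDENT kept its call without any single array, and each of the other 6 lost its call without at least 3 of the 9.

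Few genes of proliferation were called between the compounds. NEK2, a mitotic centrosome kinase, was the 1 called of 34 measured mitosis genes, where 0.311% of all genes were called lower. It read 367, 293 and 393 with compound 40, 562, 632 and 541 with compound 77, and 476, 590.1 and 614 with DMSO (1.66-fold lower, adjusted p = 0.0368). The median of the mitosis list was -0.09. NEK2 lost its call without compound 40 replicate 2 or 3 or any compound 77 array, after median scaling (adjusted p = 0.191) and on the signals as deposited (adjusted p = 0.0878). CCND1 was the 1 called among 17 genes of the G1 phase, against the same 0.311% of all genes called lower. Among the 20 measured p53 targets 16 were below 0 and none was called, with a median of -0.34. Their medians against DMSO were 0.04 with compound 40 and 0.51 with compound 77. CDKN1A, the p53 target and cell cycle inhibitor p21, averaged 761 ± 217 with compound 40, 1005 ± 243 with compound 77 and 373 ± 192 with DMSO (SD, n = 3 each), and none of its 3 comparisons passed the test. For the 16 genes of cholesterol synthesis the median was 0.25 between the compounds, from -0.16 for compound 40 and -0.47 for compound 77 against DMSO, with no call between the compounds. In all, 23 of the 35 lists held no call, and their medians lay between -0.37 and 0.25. The housekeeping gene ACTB differed by log2 -0.06 and GAPDH by 0.09, but both moved with the scaling, ACTB to 0.32 after median scaling and 0.43 as deposited, and GAPDH to 0.44 and 0.55, with no call under any of these.

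**Figure D5:**
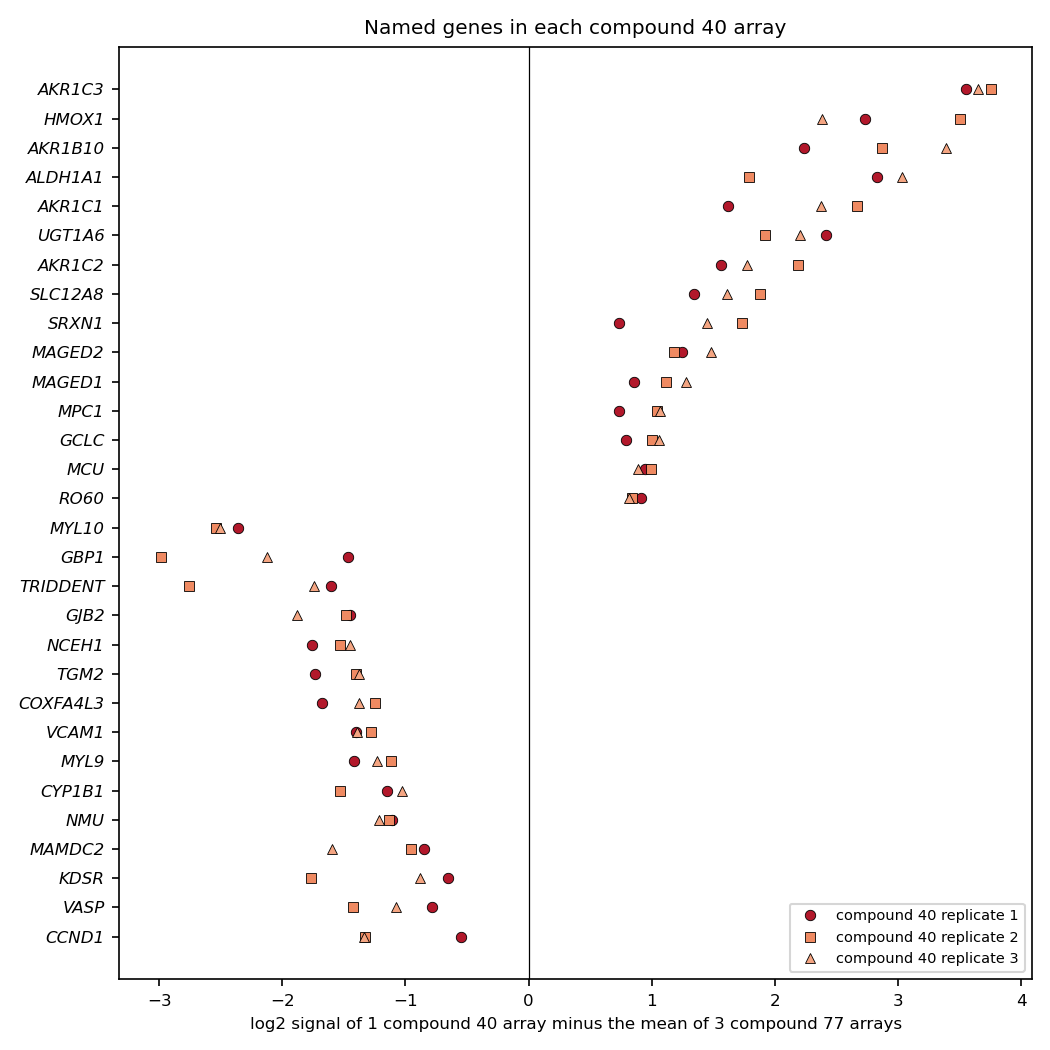
Each compound 40 array minus the mean of the 3 compound 77 arrays (log2 difference) for the 30 genes with the largest rises and falls. Replicate 1, deposited like the other arrays, and replicates 2 and 3, deposited on another scale, lie on the same side of 0 for every gene shown, which the choice of genes with arrays that do not overlap fixes.

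Because compound 40 replicates 2 and 3 were deposited on another scale, the difference was also read from each compound 40 array on its own. The genes called higher had medians of 0.77, 0.97 and 0.89 on replicates 1, 2 and 3 against the mean of compound 77, and those called lower had medians of -0.85, -1.14 and -1.03. These medians describe genes chosen with all 3 arrays, so their common direction is no independent support. With replicate 1 as the only compound 40 array, 14 probe sets were called over all 35013, against 154 with all 3. Among the named genes, HMOX1 (log2 2.73, adjusted p = 0.0012) and GCLM (1.02, adjusted p = 0.00478) were called in that fit, which assumes that a lone array varies like those of the other groups. CCND1 stood at -0.55 (adjusted p = 0.711) and VEGFA at -0.36, both nearer to 0 than with all 3 arrays.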

How the data were processed

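RNA of 786-O cells was hybridised to Affymetrix U133 Plus 2.0 arrays. The deposited table holds 1 linear intensity per probe set and array, made by the authors with MAS5 per the submitters' processing notes (version not given in the sources used here), and holds no detection calls. The labels' floor of 20, ceiling of 16000 and variation filter were not applied in the table. The 62 control probe sets were left out, the other 54613 were quantile normalized over 26 arrays, floored at 20, and taken to log2. Kept were the 35013 probe sets that reached the median signal of an array on 3 or more of 24 arrays.

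All 8 groups of 3 arrays entered 1 fit (limma 3.58.1, R 4.3.3, lmFit and eBayes with trend, 16 residual degrees of freedom), with Benjamini-Hochberg adjustment over 35013 probe sets and a threshold of 0.05. A gene was read by its brightest probe set with a single gene name. Symbols came from the platform annotation: 41037 of 41091 single-gene probe sets had a symbol in RefSeq GRCh38.p14. The compounds were compared with each other and each with DMSO. Within each comparison p-values were adjusted over probe sets alone, and no adjustment was made across the comparisons.

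Named genes were the 15 largest rises and falls with arrays that did not overlap and a brighter mean of at least 122.6 (the 70th percentile), up to 4 called members of each list or its 2 brightest, and 12 set genes including EPAS1, VEGFA, HMOX1 and NQO1. The members and lists were chosen with earlier results of these data known. The untreated group and the compound code numbers were read from the labels together with the series text. Alternatives were median scaling, signals as deposited, other filters, log2(signal + 20), the 2 groups alone and the replicate number as a block. Each array was also left out, and compound 40 was represented by replicate 1 alone. The fit with compound 40 by replicate 1 alone and the block was added after seeing the data. The fit was checked on simulated data. The number of arrays limits the precision.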

Additional observations from a re-analysis of the deposited data

How the results depend on the processing

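Against the 154 probe sets called between compound 40 and compound 77, the count was 49 after median scaling, 64 with no filter on low signals, 85 with the labels' variation filter, 3 when the 2 groups were fitted alone, 354 with the replicate block, 33 to 459 when single arrays were left out, 14 with compound 40 by replicate 1 alone and 13 with that replicate and the block. For compound 40 against DMSO (240 called) the counts were 100, 149, 142, 6, 534, 50 to 622, 25 and 29 under the same settings in that order. For compound 77 against DMSO (60 called) they were 27 after median scaling, 34 with no filter, 0 with the 2 groups alone (3152 at an unadjusted limma p under 0.05), 175 with the replicate block and 15 to 125 without single arrays. On the signals as deposited, compound 40 against DMSO had 214 calls, 72.0% of them higher, against 49.6% here. Same-numbered arrays of compounds 40 and 77 deviated from their group means together with correlations of 0.218, 0.151 and 0.072. Over all pairs of the compound 40, compound 77 and DMSO groups, same-numbered arrays gave 0.067 to 0.218. Differently numbered arrays gave -0.175 to 0.022. This is a hint of a shared replicate effect from the data and not from the design, and it was not tested. The main fit did not take the numbers as pairs. With the replicate block VEGFA (adjusted p = 0.00526) and SLC7A11 (adjusted p = 0.0206) were called too, and 3 HIF-2a targets fell in place of 1. All 37 called named genes were called with the replicate block, 28 on the signals as deposited, 18 after median scaling, 2 with the 2 groups alone and 10 in all 6 fits without an array of either compound. No named gene reversed its direction after being called. Where counts changed with the scaling or the block, the cause was not tested. With no detection calls, signal over background limits what could be read near the floor of 20, where VPS13C-DT, SLC6A13 and PRSS53 stood with compound 40 on all 3 arrays.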

Other observations

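Genes outside the naming rule, chosen after their values were seen, showed further places where compound 77 stood apart. VPS13C-DT, a divergent transcript, was at the floor of 20 on all 3 compound 40 arrays and read 42.4, 42.3 and 40 with compound 77, at least 2.08-fold lower with compound 40 (limma adjusted p = 0.00347), and it rose by log2 1.05 with compound 77 against DMSO (adjusted p = 0.00487). SAT1, the acetyltransferase that starts polyamine breakdown, read 608, 442 and 632 with compound 40, 801, 1083 and 985 with compound 77, and 521, 404 and 512 with DMSO. Compound 77 lay above both other groups for SAT1 (log2 -0.78 for compound 40 against compound 77, adjusted p = 0.0411, and 1.00 for compound 77 against DMSO, adjusted p = 0.0103). AMPD2, AMP deaminase 2, went the other way, with 448, 550.1 and 623 with compound 40, 331, 261 and 335 with compound 77, and 445, 589.5 and 614 with DMSO (adjusted p = 0.0343 between the compounds and 0.0427 for compound 77 against DMSO). Between the compounds, SAT1 and AMPD2 each kept their call in 2 of the 6 fits without an array of either compound, with highest adjusted p of 0.257 and 0.184.

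The histone gene H2BC12 rose with compound 77 against DMSO by log2 2.36 (adjusted p = 0.00267), with 224, 342 and 351 with compound 40, 345, 1217 and 856 with compound 77, and 131, 107 and 190.1 with DMSO, but its difference between the compounds was not called (log2 -1.25, adjusted p = 0.14). UCHL1, a ubiquitin hydrolase, had a small and even difference, with 5881, 5881 and 6076 with compound 40, 4000.0, 3868 and 3857 with compound 77, and 4922, 4256 and 4654 with DMSO (1.52-fold, adjusted p = 0.000656). DMSO lay between the compounds on every array.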
